A study of Mus musculus with 6 samples.

Results

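The genes described here encode respiratory complex I, the enzyme that opens the mitochondrial electron transport chain. They were chosen by name, as every gene symbol that begins with Nduf in the scanner files of 6 mouse arrays, control spots left out. This gave 36 genes out of 18558 gene names tested, of which 34 encode subunits of the complex, 1 (Ndufaf1) encodes an assembly factor and 1 (Ndufa4) is now assigned to complex IV. Only Ndufs6 had more than 1 probe, and the brighter one stands for it; brightness was the only measured value used in choosing probes, and all 36 genes passed the filter on dim spots. RNA came from HACA cells that carried a short hairpin against Snail (shSnail), from HACA cells that carried one against Loxl2 (shLoxl2), and from a control line with a hairpin against GFP (shGFP). Such hairpins are made to reduce a chosen transcript by RNA interference. Snail, encoded by Snai1, is a transcriptional repressor known for its part in epithelial-mesenchymal transition, and Loxl2 is a lysyl oxidase-like enzyme. All groups thus share the hairpin treatment, and shGFP RNA occupied the other dye on every array.

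There were 2 shSnail arrays (replicates 1 and 2, both with the silenced RNA in Cy5) and 4 shLoxl2 arrays (replicates 1 and 2, each hybridised once in Cy5 and once in Cy3). These groups follow the sample labels, whereas the series' design text counts 3 hybridisations for each condition, a difference that the files did not settle. A value is the log2 ratio of silenced over shGFP RNA on 1 array, so 0 means equal signal and 1 means a signal doubled in the silenced RNA. The number of arrays limits the precision, and the labels do not say whether replicates were separate cultures or whether each silenced line is 1 clone, so the spread behind the p-values may be technical. Across all probes the 2 shSnail arrays correlated at 0.876. The Cy3 and Cy5 arrays of a shLoxl2 replicate, turned to the same direction, correlated at 0.0226 and -0.0319. Single shLoxl2 arrays thus varied about as much with the dye as with the silencing. The shLoxl2 response was therefore taken as the average over each dye-swapped pair, and the dye effect of each probe was subtracted from the shSnail values; its median was 0.07 over the complex I genes and 0.06 over all probes. The shSnail and shLoxl2 arrays were scanned on different days with different extraction protocols, so for shSnail against shLoxl2 these cannot be told apart from the silencing. The dye effect subtracted from the shSnail values was estimated on the shLoxl2 arrays, so it comes from the other scan day. The silenced genes did not check the labels. Loxl2 differed from shGFP by 0.11 in shLoxl2 (adjusted p = 0.59). On the 4 shLoxl2 arrays its probe was well above background in only 2 silenced channels and 1 shGFP channel. That value thus rests on dim spots. On the shSnail arrays the Snai1 probe cleared the background in neither channel. The labels name no tissue for HACA cells. On all 6 arrays, 7 of 7 measured keratinocyte marker genes were well above background in 1 channel or more. The same held for 5 of 6 fibroblast, 3 of 4 simple-epithelium, 3 of 5 leukocyte and 2 of 4 endothelial markers. These counts therefore do not settle the tissue.

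Complex I passes electrons from NADH to ubiquinone and pumps protons across the inner mitochondrial membrane. Its peripheral arm holds the N module, where NADH is oxidised, and the Q module, where ubiquinone is reduced, and its membrane arm holds a proximal and a distal part that pump protons. A set of conserved core subunits carries the flavin and the iron-sulphur clusters or forms the pumps, and accessory subunits surround and stabilise that core. The membrane-embedded core subunits are encoded by mitochondrial DNA, and none of those genes was found on this array by name. The core genes here are the 7 nuclear ones.

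In shSnail cells 25 of the 36 genes were higher than in shGFP cells and 0 were lower (limma, Benjamini-Hochberg adjusted p under 0.05). Of all 19719 tested probes, 8.77% were called higher and 12.5% lower, so 69.4% of the complex I genes stood against 8.77%. The set was chosen with earlier results of these data known, so this contrast describes the genes and is no test of the set. Among the 9462 probes well above background in both channels of every array, as 35 of the 36 genes were, the share called higher was 11.8%. The median log2 fold change of the 36 genes was 0.87, beside -0.04 over all tested probes. Leaving out Ndufa3, which was not above background on the shSnail arrays, it was 0.88, and the 35 values ran from -0.12 to 1.89. In shLoxl2 cells 1 gene was higher and 5 were lower, where 8.01% of all probes were called higher and 5.83% lower, and the median was -0.03. Without shLoxl2 replicate 1 none of the 36 was higher, without replicate 2 only 2 were lower, and by the scanner's own log ratios 0 were called in either direction. The ratios of both shSnail arrays were above 0 for 34 of the 36 genes. The 4 shLoxl2 ratios lay on both sides of 0 for 19. These counts are not alike, because the shLoxl2 arrays are more and came in both dye orientations. The shares of all probes were not counted for them. In 31 of the 36 genes both shSnail ratios lay above all 4 shLoxl2 ratios, as they did for 14% of all probes. Without the dye correction 29 genes were called higher in shSnail, where the share of all probes was 13%. Of all the alternatives run, 7 gave fewer shSnail calls than 25, from 15 to 22. When arrays were centred on their median in place of loess, 16 genes were called higher and 1 lower (Ndufaf1), with a median of 0.52 that was 0.42 above that of all probes; with shSnail replicate 2 left out, 15 were called higher. The scanner's own log ratios gave 20, leaving out shSnail replicate 1 gave 18, and leaving out a shLoxl2 replicate or fitting the 6 arrays singly gave 21 or 22. The split of all probes also differed by setting: it was 1729 higher and 2474 lower in shSnail by loess, 4662 and 4041 by median centring, and 1012 and 3172 by the scanner's own log ratios. In bulk RNA, more cells of a type and more RNA per cell cannot be told apart.

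**Figure D1:**
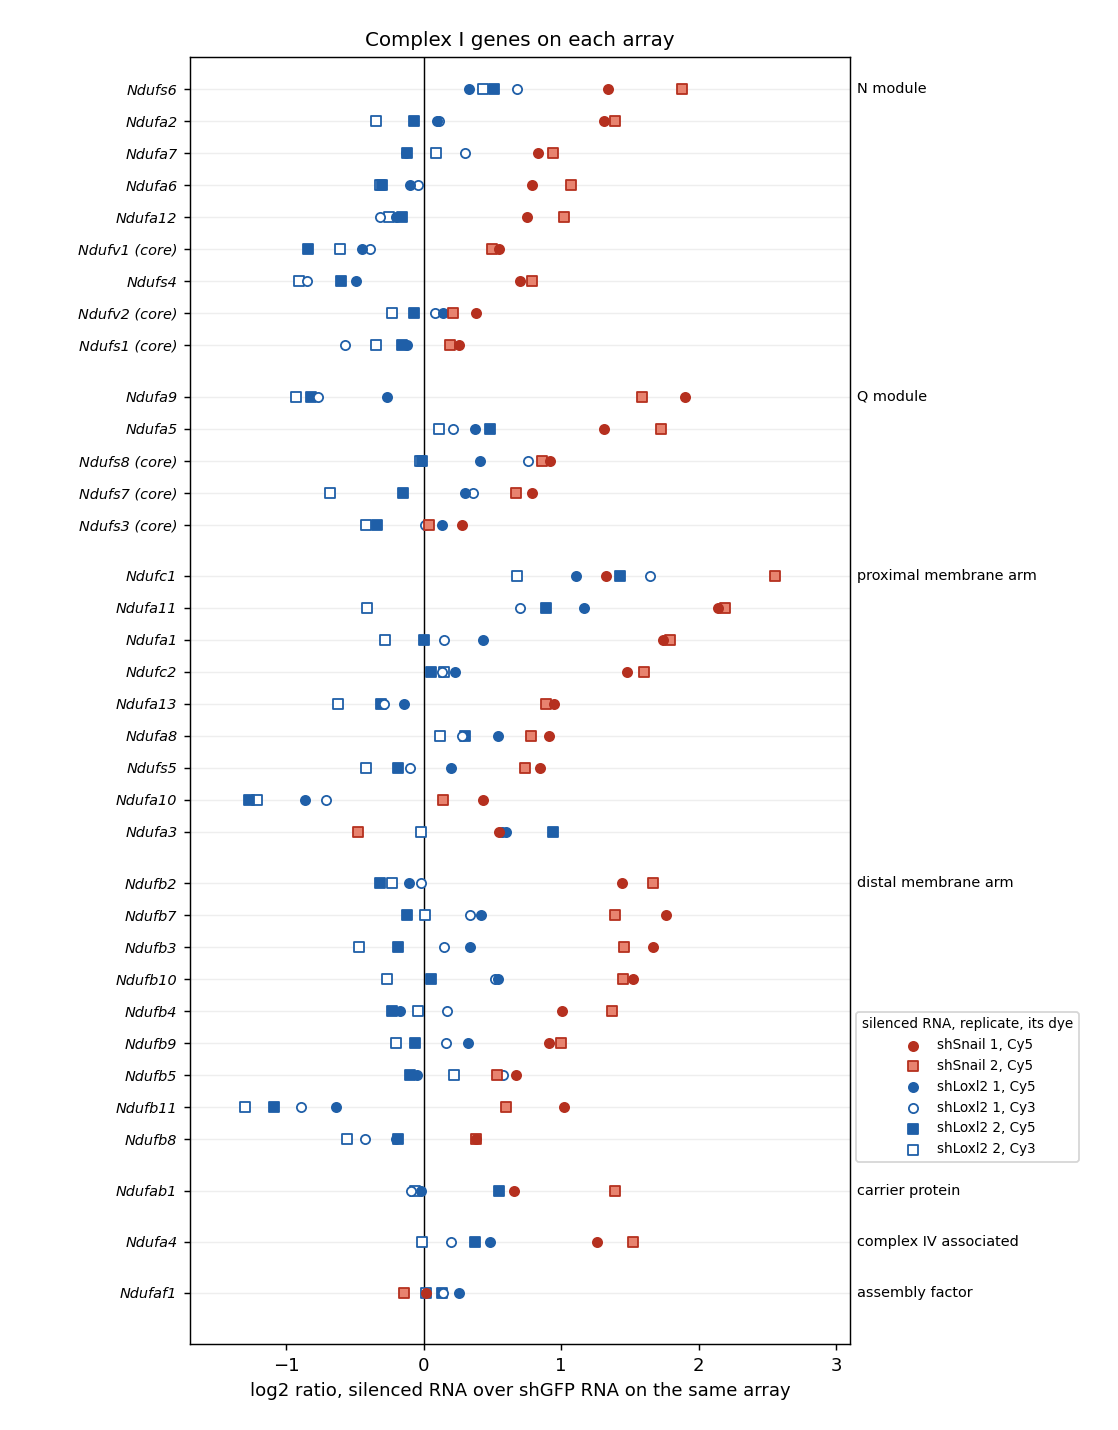
Log2 ratio of silenced over shGFP RNA (horizontal axis) for 35 of the complex I genes (rows, grouped by module and ordered by the shSnail fold change) on each of the 6 arrays; each point is 1 array, red for shSnail and blue for shLoxl2, circles for replicate 1 and squares for replicate 2, open where the silenced RNA was in Cy3. In 30 of the 35 rows both red points lie to the right of all 4 blue points; the points of Ndufa3 rest on spots not above background in 1 or both channels.

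Promoter sequence was examined for short motifs. RefSeq windows (GRCm38.p6) from 250 bases before to 50 after the transcript start were used for 32 of the 36 genes. Both strands were searched for 3 motifs of regulators known from nuclear respiratory genes: GCGCANGCG for NRF1, CCGGAAG for the ETS family that includes GABP, and AAGATGGC for YY1. The NRF1 letters were in 8 of 32 windows (25%), against 7.03% of the windows of 27025 genes. YY1 letters were in 7 (21.9%, against 3.19%) and ETS letters in 4 (12.5%, against 9.93%). All 8 windows with NRF1 letters belonged to the 23 matched genes that rose in shSnail, and 0 to the 9 matched genes that were not called. Most matched genes, 23 of 32, were called, and this split was not tested. Of the genes with NRF1 letters, Ndufa6, Ndufa8 and Ndufs5 were not called higher under median centring. YY1 letters were in 4 of the 23 and 3 of the 9, and ETS letters in 2 of the 23 and 2 of the 9. A match describes the letters only, and no factor's binding was measured. The NRF1 matches nearest to the start are printed below 5′ to 3′ on the gene's strand with 10 bases on each side and the matched letters in capitals, 1 for each of the 8 genes, because all 8 were among the genes that rose.
Ndufa11 (chr17:56717692-56717721, + strand): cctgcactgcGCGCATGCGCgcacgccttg
Ndufa5 (chr6:24527698-24527726, - strand): tgtgtgagctGCGCAGGCGcaaatctacc
Ndufa6 (chr15:82354249-82354277, - strand): cgtggcaccgCGCGTGCGCacgctgaagg
Ndufa8 (chr2:36049329-36049357, - strand): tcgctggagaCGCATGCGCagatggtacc
Ndufb10 (chr17:24724407-24724435, - strand): tcacctttctGCGCAGGCGtagaggtccc
Ndufb4 (chr16:37654372-37654400, - strand): cctcatatccGCGCAGGCGcagatgtgcg
Ndufs5 (chr4:123718266-123718294, - strand): gctgcttgctGCGCAGGCGcagacccgct
Ndufs6 (chr13:73328479-73328507, - strand): gactgctgtgCGCCTGCGCcggcacttgg

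Of the 11 NRF1 matches in these windows 10 begin before the transcript start; the exception is that of Ndufa6, 25 bases into the transcript. The 7 YY1 matches all begin after the start, and the letters ATG in them are part of the motif searched. The pair below shows the YY1 letters, again in capitals, in the gene with the largest difference between the silencings and in a core gene that was not called. The match begins at base 30 of the Ndufa9 transcript and at base 25 of the Ndufs7 transcript.
Ndufa9 (chr6:126849098-126849125, - strand): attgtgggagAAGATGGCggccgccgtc
Ndufs7 (chr10:80249463-80249490, + strand): ggccgaggccAAGATGGCggcgctggcg

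Among core subunits 2 of 7 genes rose in shSnail, with a median of 0.40, and among accessory subunits 22 of 27 rose, with a median of 1.16 over the 26 that were above background. These are descriptions of the 2 lists, and the difference between them was not tested. Ndufs8, which carries iron-sulphur clusters of the Q module, had shSnail ratios of 0.92 and 0.86, against shLoxl2 ratios of 0.41 and 0.76 (replicate 1, Cy5 before Cy3 here and in all later pairs) and -0.01 and -0.03 (replicate 2). It rose by 0.97 (standard error 0.22, adjusted p = 0.0236), and its shSnail ratios lay just above the higher shLoxl2 pair. Ndufv1, the subunit that binds NADH and the flavin, had shSnail ratios of 0.55 and 0.50, against shLoxl2 ratios of -0.45 and -0.39 in replicate 1 and -0.84 and -0.61 in replicate 2. It rose by 0.60 in shSnail (standard error 0.16, adjusted p = 0.0392) and fell in shLoxl2 by 0.57 (standard error 0.12, adjusted p = 0.034), with no overlap between the groups. Both core calls in shSnail were lost without either shSnail replicate and under median centring, and the shLoxl2 call of Ndufv1 was lost without shLoxl2 replicate 2.

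None of Ndufs7, Ndufv2, Ndufs1 and Ndufs3 passed the test in shSnail or in shLoxl2. Ndufs7, which holds the last iron-sulphur cluster before ubiquinone, had shSnail ratios of 0.79 and 0.67, against shLoxl2 ratios of 0.30 and 0.36 (replicate 1) and -0.15 and -0.68 (replicate 2). Its shSnail fold change was 0.61 (standard error 0.26, adjusted p = 0.138). The shSnail ratios were above all shLoxl2 ratios, but the shLoxl2 replicates stood far apart. Ndufv2, an iron-sulphur subunit beside Ndufv1, had shSnail ratios of 0.38 and 0.21, against 0.14 and 0.08, then -0.07 and -0.23, in the shLoxl2 replicates. Ndufs1, the largest iron-sulphur subunit, had shSnail ratios of 0.26 and 0.19, against -0.12 and -0.57, then -0.16 and -0.35. Both had shSnail ratios a little above every shLoxl2 ratio and shSnail fold changes that did not pass (0.24 for Ndufv2, adjusted p = 0.308, and 0.06 for Ndufs1, adjusted p = 0.787). Ndufs3, a Q module subunit without a redox group, had shSnail ratios of 0.28 and 0.04, against 0.13 and 0.01, then -0.34 and -0.42, in the shLoxl2 replicates. For Ndufs3 the groups overlapped, and its shSnail fold change was 0.11 (adjusted p = 0.714).

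Around that core, all accessory N module genes with an Nduf name on the array rose in shSnail in this fit, by 0.58 to 1.67. They were Ndufs4, Ndufs6, Ndufa2, Ndufa6, Ndufa7 and Ndufa12. Ndufv3, an accessory gene of this module listed under another name, did not pass in shSnail (0.40, adjusted p = 0.148). Ndufs6, a zinc-binding subunit needed late in assembly, had shSnail ratios of 1.34 and 1.88, against 0.33 and 0.68 in shLoxl2 replicate 1 and 0.51 and 0.43 in replicate 2. Its fold change in shSnail was 1.67 (standard error 0.20, adjusted p = 0.00358), a 3.19-fold higher signal, and the dimmer second probe gave 1.68. In shLoxl2 the 2 probes gave 0.49 and 0.45, and the brighter did not pass (adjusted p = 0.0991). Ndufa2 reached 1.31 and 1.39 on the shSnail arrays, against 0.10 and 0.11 in shLoxl2 replicate 1 and -0.07 and -0.35 in replicate 2; it rose by 1.28 in shSnail (adjusted p = 0.00373). Ndufs4, whose loss causes a Leigh-like encephalopathy in mice, had shSnail ratios of 0.70 and 0.79, against -0.49 and -0.85 in shLoxl2 replicate 1 and -0.60 and -0.91 in replicate 2. It was called in both silencings with opposite signs, 0.58 in shSnail (standard error 0.13, adjusted p = 0.0258) and -0.71 in shLoxl2 (standard error 0.11, adjusted p = 0.0119). The shSnail call of Ndufs4 was lost without either replicate of shSnail or of shLoxl2 and under median centring (0.25). Ndufa6, Ndufa7 and Ndufa12 rose by 0.94, 1.04 and 0.83; without shSnail replicate 2 Ndufa6 and Ndufa12 did not pass.

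In the Q module both accessory genes rose in shSnail. Ndufa9, which stabilises the junction of the 2 arms, had shSnail ratios of 1.90 and 1.59, against -0.27 and -0.77 in shLoxl2 replicate 1 and -0.82 and -0.93 in replicate 2. On the shSnail arrays its normalised intensities were 9695 and 12571 in the silenced channel, against 2602 and 4166 in the shGFP channel. The groups did not overlap on any array. Ndufa9 rose by 1.59 in shSnail (standard error 0.19, adjusted p = 0.00332) and fell in shLoxl2 by 0.70 (standard error 0.14, adjusted p = 0.0293), a fall not called without shLoxl2 replicate 2. Its probe lies at chr6:126787597-126787656 in mm8, on the - strand. Ndufa5 had shSnail ratios of 1.31 and 1.73, against 0.37 and 0.21, then 0.48 and 0.11, in the shLoxl2 replicates. It rose by 1.39 in shSnail (adjusted p = 0.00388) and its shLoxl2 value of 0.29 did not pass (adjusted p = 0.236).

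Within the proximal membrane arm 7 of 9 genes rose in shSnail, with a median of 1.18 over the 8 that were above background. Ndufc2 had the smallest p of all 36 genes: its shSnail ratios were 1.48 and 1.60, against 0.23 and 0.13 in shLoxl2 replicate 1 and 0.05 and 0.15 in replicate 2. Every array of a group was close to the others of that group, and the fold change in shSnail was 1.54 (standard error 0.14, adjusted p = 0.00151), with 0.14 in shLoxl2 (adjusted p = 0.456). Ndufa1, an X-linked subunit of the arm, had shSnail ratios of 1.74 and 1.79, against 0.43 and 0.15, then 0.00 and -0.28, in the shLoxl2 replicates, and rose by 1.63 (adjusted p = 0.00242). Ndufa11 had shSnail ratios of 2.14 and 2.19, against 1.17 and 0.70 in shLoxl2 replicate 1 and 0.89 and -0.41 in replicate 2. It carried the largest dye effect of the set (0.44), so its ratios of 2.14 and 2.19 stood beside a dye-corrected rise of 1.73 (adjusted p = 0.00622). Ndufc1 was the only member called higher in both silencings. Its shSnail ratios were 1.33 and 2.56, against 1.11 and 1.65 in shLoxl2 replicate 1 and 1.43 and 0.68 in replicate 2, so the groups overlapped and the 2 shSnail replicates lay far apart. The fold changes were 1.89 in shSnail (standard error 0.41, adjusted p = 0.0211) and 1.22 in shLoxl2 (standard error 0.28, adjusted p = 0.0423). Without shSnail replicate 2 or shLoxl2 replicate 1 the first call was lost, and without either shLoxl2 replicate the second was.

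Ndufa13, also known as GRIM-19, had shSnail ratios of 0.95 and 0.89, against -0.14 and -0.29, then -0.31 and -0.62, in the shLoxl2 replicates, and rose by 0.81 (adjusted p = 0.0122). Ndufa8 and Ndufs5 rose by 0.74 and 0.66. These 3 calls were lost without either shSnail replicate and under median centring. Ndufa10 was not called in shSnail (0.34, adjusted p = 0.271) but had the lowest shLoxl2 value of the set. Its ratios were 0.43 and 0.14 on the shSnail arrays, against -0.86 and -0.71 in shLoxl2 replicate 1 and -1.27 and -1.21 in replicate 2. The fall in shLoxl2 was by 1.01 (standard error 0.15, adjusted p = 0.0121), and all 4 arrays were far below 0. Ndufa3 was dim: on the shSnail arrays neither channel was well above background, so no fold is given there or against shLoxl2. On each shLoxl2 array the Cy3 channel was not well above background, so its ratios are not given either.

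The distal membrane arm had the highest median in shSnail, 1.33, with 7 of its 9 genes called higher. Ndufb2 had shSnail ratios of 1.44 and 1.67, against -0.11 and -0.02, then -0.32 and -0.23, in the shLoxl2 replicates, and rose by 1.60 (standard error 0.15, adjusted p = 0.00175). Ndufb7 had shSnail ratios of 1.76 and 1.39, against 0.42 and 0.34, then -0.12 and 0.01, and rose by 1.59 (adjusted p = 0.00391). For both, each shSnail array lay far above each shLoxl2 array. Ndufb3 and Ndufb10 rose by 1.45 and 1.40. Ndufb4 had shSnail ratios of 1.01 and 1.37, against -0.17 and 0.17, then -0.23 and -0.04, and rose by 1.33 (adjusted p = 0.00385). Ndufb9 and Ndufb5 rose by 0.88 and 0.84, neither of them without shSnail replicate 1 or under median centring. For Ndufb5 the arrays of the groups overlapped (0.67 and 0.53 in shSnail, with a highest shLoxl2 ratio of 0.58). Its dye effect was -0.24, so its rise of 0.84 exceeds both shSnail ratios. Without the dye correction the rise of Ndufb5 was 0.60. Ndufb11, an X-linked subunit, had shSnail ratios of 1.02 and 0.60, against -0.64 and -0.89 in shLoxl2 replicate 1 and -1.09 and -1.30 in replicate 2. It fell in shLoxl2 by 0.98 (standard error 0.16, adjusted p = 0.0155), though not without shLoxl2 replicate 2, and its shSnail value of 0.70 missed the threshold (adjusted p = 0.0574). Ndufb8, a subunit often used to gauge complex I protein on blots, stood at 0.38 on both shSnail arrays, against -0.20 and -0.43, then -0.19 and -0.56, in the shLoxl2 replicates, and was called in neither silencing.

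**Figure D2:**
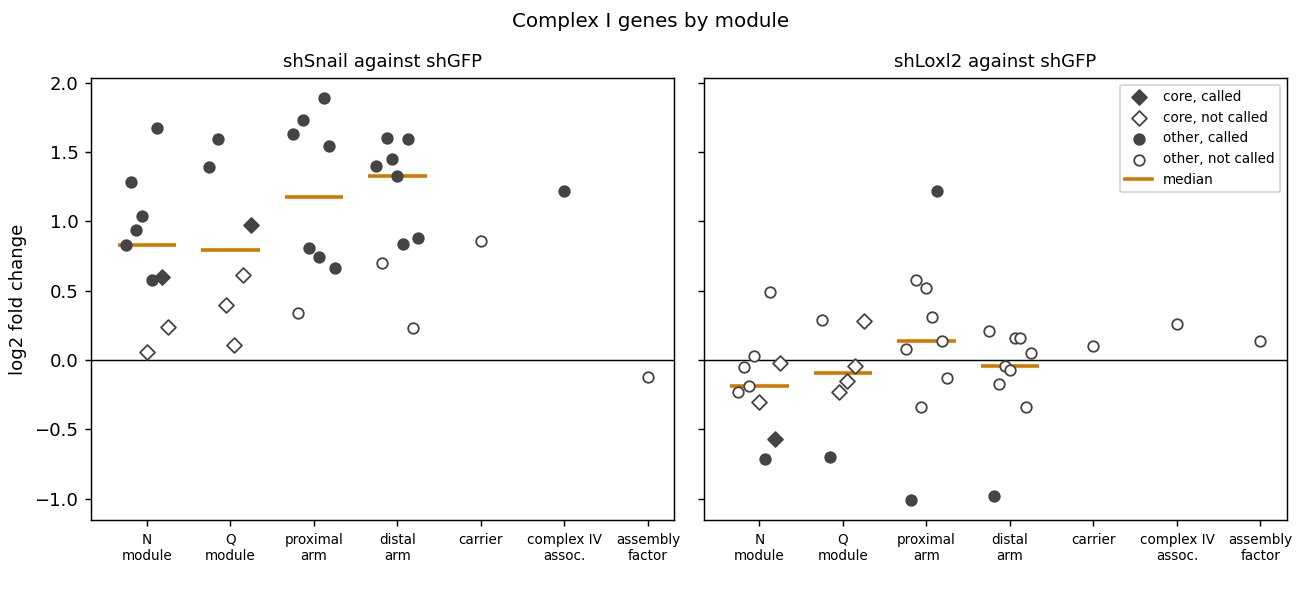
Log2 fold change against shGFP (vertical axis) of each complex I gene by module (horizontal axis), shSnail on the left and shLoxl2 on the right; diamonds are core subunits, circles all others, filled symbols passed the adjusted p of 0.05, and the orange line is the module's median. In shSnail the module medians lie at 0.83, 0.79, 1.18 and 1.33 (without Ndufa3, not plotted there) and most core genes lie at the bottom of their module; in shLoxl2 all 4 medians lie between -0.19 and 0.14.

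Ndufab1, the mitochondrial acyl carrier protein that sits in the complex, did not pass in shSnail (0.86, adjusted p = 0.0618). Its shSnail ratios were 0.66 and 1.39, against -0.02 and -0.09 in shLoxl2 replicate 1 and 0.55 and -0.06 in replicate 2. Ndufa4, once counted in complex I and now in cytochrome oxidase, had shSnail ratios of 1.26 and 1.52, against 0.48 and 0.20, then 0.37 and -0.01, and rose by 1.22 (adjusted p = 0.00379). Ndufaf1, a chaperone of membrane arm assembly, had shSnail ratios of 0.02 and -0.14, against 0.26 and 0.14, then 0.13 and 0.02, in the shLoxl2 replicates. It was called in neither silencing, and among the 35 genes above background it was the only one with a negative shSnail fold change (-0.12, adjusted p = 0.593).

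Genes of the same complex that the files list under other names are not among the 36. Ndufv3, an accessory N module gene, and the assembly factors Ndufaf3, Ndufaf4 and Ndufaf5 had shSnail fold changes of 0.40, 0.30, 0.22 and -0.04, and 0 of the 4 passed. In shLoxl2, Ndufv3 (0.56, adjusted p = 0.0427) and Ndufaf3 (0.63, adjusted p = 0.0233) rose and Ndufaf5 fell by 0.58 (adjusted p = 0.0346). Of 9 measured assembly genes without an Nduf name, 2 rose in shSnail (22.2%, beside 8.77% of all probes). These were Dmac1, a distal arm assembly gene (1.50, adjusted p = 0.00196), and Nubpl, which delivers iron-sulphur clusters (1.09, adjusted p = 0.0347). The median of the 9 genes in shSnail was 0.19, against 0.87 for the 36.

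Set directly against each other on the 4 arrays with silenced RNA in Cy5, shSnail was higher than shLoxl2 for 21 of the 36 genes and lower for 0. Over all probes 4.22% were higher and 8.53% lower (833 and 1683; 5013 and 4347 by median centring, 423 and 1927 by the scanner's log ratios). The median difference of the 36 genes was 1.08 (1.1 without Ndufa3), beside -0.04 over all probes. Ndufa9 had the largest, 2.29 (standard error 0.25, adjusted p = 0.017), a 4.89-fold higher signal in shSnail, followed by Ndufb2 at 1.77 (adjusted p = 0.0164), Ndufb11 at 1.68 (adjusted p = 0.021) and Ndufa1 at 1.55 (adjusted p = 0.0178). Of the 25 genes called higher in shSnail, 6 did not pass here (Ndufa8, Ndufb5, Ndufb9, Ndufc1, Ndufs5 and Ndufs8). Ndufa10 and Ndufb11 passed here but not against shGFP in shSnail, and both fell in shLoxl2. Ndufv1 was the only core gene of 7 that passed, with a difference of 1.17 (adjusted p = 0.0264). Without either shSnail replicate 0 genes passed, although the median difference was then 1.14 or 0.92; without shLoxl2 replicate 1 there were 27 and without replicate 2 there were 21.

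**Figure D3:**
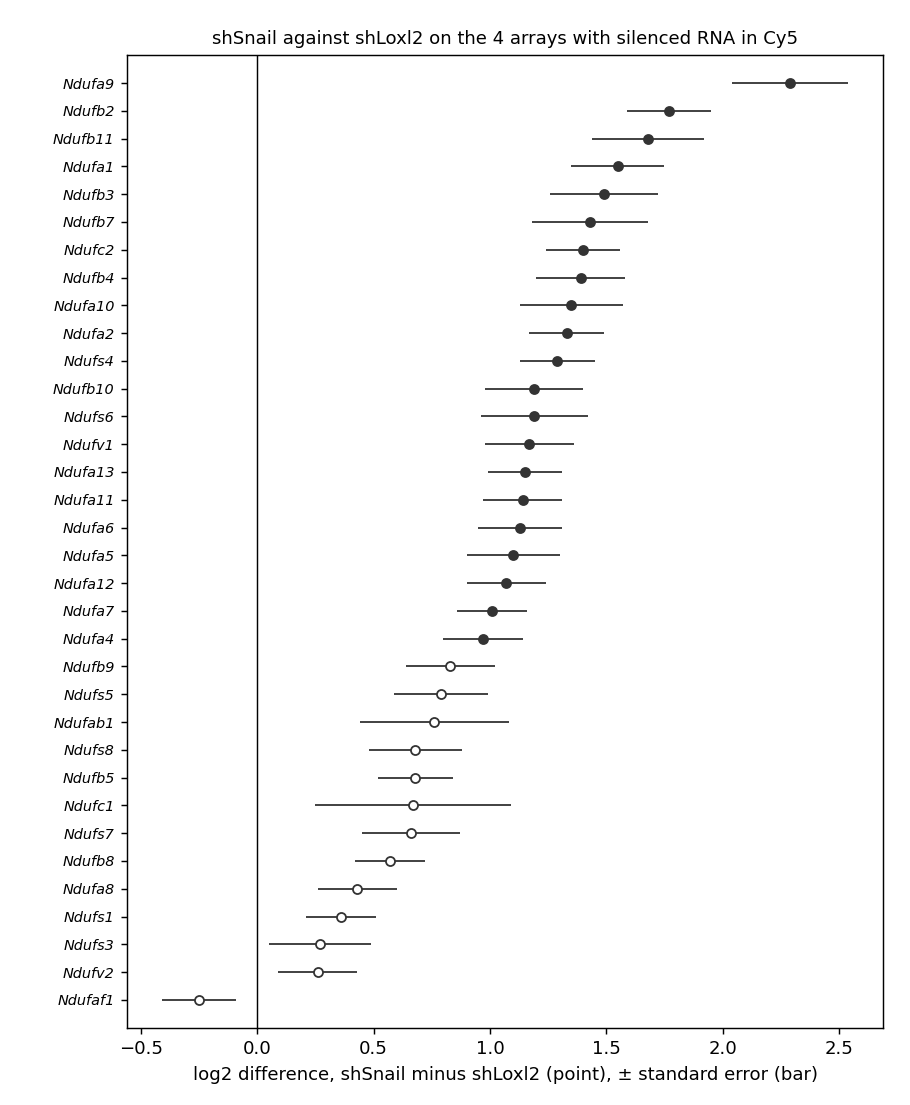
Log2 difference of shSnail minus shLoxl2 (horizontal axis) for 34 of the genes, ordered by size and without Ndufa3; points are differences on the 4 arrays with silenced RNA in Cy5, bars are standard errors, and filled points passed the adjusted p of 0.05. Of the 34 points 33 lie above 0, Ndufa9 lies highest at 2.29, and Ndufaf1 lies below 0.

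The remaining respiratory complexes were set beside complex I. Of 39 genes of complexes II to V, 24 were higher and 1 lower in shSnail, with a median of 0.88; in shLoxl2 6 were higher and 1 lower, with a median of 0.11. The smallest p among them belonged to Cox7a2 of cytochrome oxidase (2.36, adjusted p = 0.00146), Atp5g1 of ATP synthase (1.65, adjusted p = 0.00147) and Uqcrq of complex III (1.68, adjusted p = 0.0016). Proteins of the mitochondrial ribosome were higher in 39 of 75 genes and lower in 2 in shSnail, with a median of 0.65. In shLoxl2 14 were higher and 8 lower (18.7% and 10.7%), with a median of 0.07. Cytosolic ribosomal proteins had 20 of 71 genes higher and 1 lower in shSnail and a median of 0.48, but this list carried a dye effect with a median of -0.42, and without the dye correction its median was 0.01. For the complex I genes the medians with and without that correction were 0.87 and 0.90. No difference between these lists was tested.

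**Figure D4:**
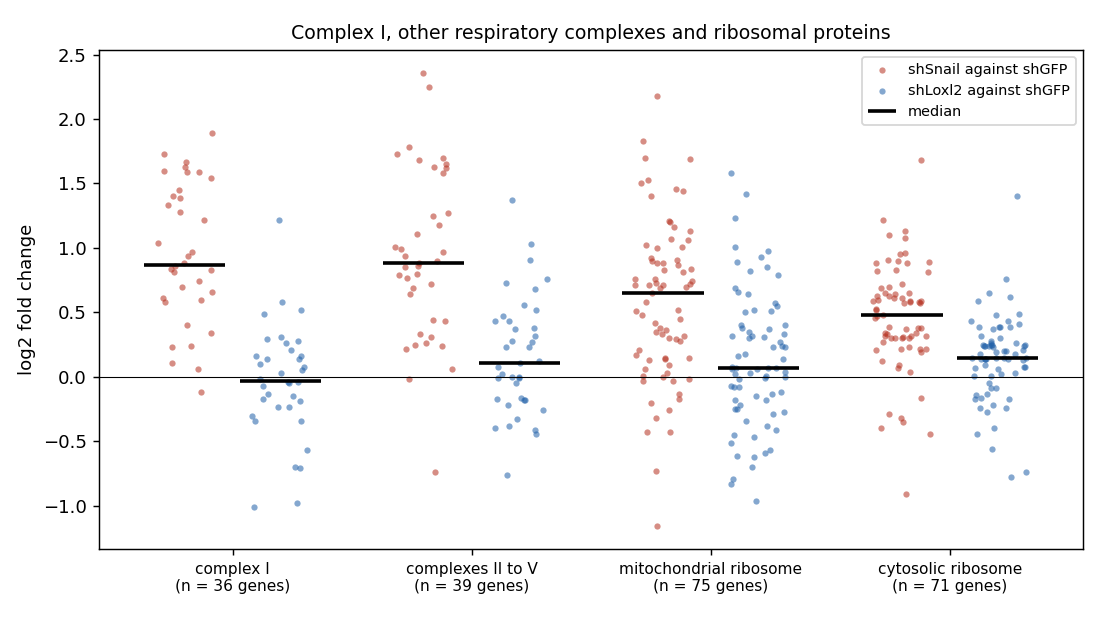
Log2 fold change against shGFP (vertical axis) of single genes (points) in 4 lists, red for shSnail and blue for shLoxl2, with black lines at the medians; Ndufa3 is not plotted in shSnail. The shSnail medians are 0.87 for complex I, 0.88 for complexes II to V, 0.65 for the mitochondrial and 0.48 for the cytosolic ribosome; the shLoxl2 medians are -0.03, 0.11, 0.07 and 0.15.

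Of 12 genes for regulators of nuclear respiratory genes or of mitochondrial DNA, 1 was higher and 1 lower in shSnail. That is 8.33% each way, no more than the 8.77% higher and 12.5% lower over all probes. Esrra, a nuclear receptor, was 0.56 higher in shSnail (adjusted p = 0.0496), a call that was lost without the dye correction (0.31, with 0 of the 12 then called higher), and its shLoxl2 value of 0.50 did not pass (adjusted p = 0.0517). Gabpb1, the beta subunit of the ETS factor GABP, fell in both: by 1.82 in shSnail (adjusted p = 0.00128) and by 1.69 in shLoxl2 (adjusted p = 0.00145). The median of the regulators was -0.34 in shSnail and 0.10 in shLoxl2. Both silencings were read against shGFP RNA, so these pairs of values share their control.

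Some markers of epithelial cells also differed from shGFP, in 1 or both silencings. Over all probes 8.77% were called higher and 12.5% lower in shSnail, and 8.01% and 5.83% in shLoxl2. Of 7 measured keratinocyte markers, 0 were higher and 4 lower in shSnail (57.1%), with a median of -0.82. The 4 were Sfn, Dsp, Trp63 and Krt14, lower by 0.82 to 1.92, with Krt14 close to the threshold (adjusted p = 0.0487). In shLoxl2 3 were lower (42.9%), with a median of -0.40. Among 4 simple-epithelium markers Krt8 was higher in shSnail (1.12), and Epcam and Cdh1 were higher in shLoxl2 (1.51 and 1.08). Of 6 fibroblast markers Pdgfra was lower in both (by 1.18 in shSnail and 0.82 in shLoxl2), 1 gene being 16.7% of that list. None of the measured leukocyte and endothelial markers (4 and 2 genes) passed in shSnail, and in shLoxl2 the macrophage gene Cd68 was higher (0.66, adjusted p = 0.0185). On all 6 arrays 3 of 5 leukocyte markers and 2 of 4 endothelial markers were well above background in 1 channel or more. The leukocyte marker Ptprc was so on 1 array, and the endothelial markers Pecam1 and Tek on 1 and 0. The part of these shifts in the complex I values was not tested.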

How the data were processed

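The deposited scanner files hold intensity values of both dyes, made with Feature Extraction 9.5.1.1 per the file headers (6.1.1 per the labels). They also hold log10 ratios of red over green that the program computed, per the file headers. A value table from the authors repeats these log10 ratios in rounded form: columns equalled their arrays to within 0.006 for 100% of spots, except that of shSnail replicate 2 (9.37%), which equals the column of replicate 1. The table was used only as an alternative for shLoxl2. Its medians ran from 0.0371 to 0.098, and direction and centring are those of the scanner's ratios.

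Mean intensities and local background medians were corrected by normexp (offset 50) and normalised by loess within arrays, giving weight 0 to outlier spots and to 736 control spots. From 21318 probe spots came 20868 probes; 19719 were tested, being well above background in 1 channel or more on at least 2 arrays. Red spots were well above background at 85.4% to 92.4%, green at 55.9% to 74.9%. RefSeq accessions named 14711 probes; the rest keep the file's names. Probes have the files' mm8 coordinates; promoters are RefSeq's, in GRCm38.p6. Motif positions were read on those windows, and both strands were searched.

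Tests were limma 3.58.1 (lmFit, eBayes) run under R 4.3.3 (data.table version 1.17.8), Benjamini-Hochberg adjusted over all tested probes at 0.05. shLoxl2 against shGFP used the 2 dye-swap averages, with the 2 shSnail values sharing the spread. For shSnail the dye effect, estimated from the shLoxl2 pairs, was removed in full, although its slope on the shSnail arrays was 0.453. shSnail against shLoxl2 used the 4 Cy5 arrays. A single shSnail array is thus taken to vary like an averaged pair. The fits were tested on simulated data. Members, lists and tests were chosen with earlier results of these data known. The values of 1 gene are not reported here singly, though the counts and medians hold it. By the rule for named genes, the other core subunits, the assembly factor and, in each comparison, the 8 members of smallest p have values for every array; genes outside the set come from the lists, up to 3 each by smallest p. Any member may be named, and so were the called genes of a list where 5 or fewer were called, and markers that were not above background. The alternatives tried are background, scaling, dim-probe filter, probe choice, dye handling, replicates left out and a replicate block.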

Additional observations from a re-analysis of the deposited data

Results flagged for a closer look

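Ndufab1 was flagged because 1 of its 4 shLoxl2 arrays stood apart: replicate 2 with the silenced RNA in Cy5 had a log2 ratio of 0.55, and the other 3 arrays lay between -0.09 and -0.02. Chance would mark about 1 in 20 groups of 4 independent values, and 36 genes were screened. These arrays are 2 replicates in both dyes with the dye effect left in, so that rate need not hold.

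For 21 genes the difference between the silencings, shSnail minus shLoxl2, passed its own test (limma, 4 arrays with silenced RNA in Cy5). By module these log2 differences were as follows. In the N module they were 1.33 for Ndufa2, 1.29 for Ndufs4, 1.19 for Ndufs6, 1.17 for Ndufv1, 1.13 for Ndufa6, 1.07 for Ndufa12 and 1.01 for Ndufa7. In the Q module they were 2.29 for Ndufa9 and 1.1 for Ndufa5. In the proximal membrane arm Ndufa1 had 1.55, Ndufc2 1.40, Ndufa10 1.35, Ndufa13 1.15 and Ndufa11 1.14. In the distal membrane arm Ndufb2 had 1.77, Ndufb11 1.68, Ndufb3 1.49, Ndufb7 1.43, Ndufb4 1.39 and Ndufb10 1.19. Ndufa4 had 0.97. Scan day and extraction protocol cannot be told apart from the silencing in these differences.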

How the results depend on the processing

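No value of a complex I gene changed sign past the threshold under any alternative run. In shSnail, 14 of 25 calls held in each alternative run: Ndufa1, Ndufa2, Ndufa4, Ndufa5, Ndufa7, Ndufa9, Ndufa11, Ndufb2, Ndufb3, Ndufb4, Ndufb7, Ndufb10, Ndufc2 and Ndufs6. In shLoxl2 0 of 6 calls and in shSnail against shLoxl2 0 of 21 did. The cause of the changes below was not tested, except that leaving out a replicate leaves fewer arrays. Median centring gave 16 higher and 1 lower in shSnail (median 0.52), 3 lower in shLoxl2, and 1 lower with a median of 0.77 in shSnail against shLoxl2. The scanner software's log ratios gave a median of 0.96 in shSnail, where the median of all probes was -0.28, 0 higher and 0 lower in shLoxl2, and 10 higher in shSnail against shLoxl2. Scaling the dye effect gave a shSnail median of 0.92. Without background subtraction shLoxl2 had 0 higher and 8 lower. The 6 arrays fitted singly gave 2 higher in shLoxl2, its Cy5 arrays alone 4 and its Cy3 arrays alone 0. The authors' value table gave 0 and 0. Leaving out replicates gave 15 to 22 higher and medians of 0.86 to 0.95 in shSnail, 0 to 1 higher, 2 to 5 lower and medians of -0.14 to 0.11 in shLoxl2, and 0 to 27 higher with medians of 0.92 to 1.14 in shSnail against shLoxl2. With a replicate block, 22 genes were higher in shSnail against shLoxl2 (median 1.08); equal numbers deviated together at a correlation of 0.208 over probes, with 2 pairs, so they are not shown to pair the samples. For a dim spot such as Ndufa3 no fold could be given.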
